A study of Mus musculus with 6 samples.

Results

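Chrna5 and Gria1 encode subunits of neurotransmitter-gated ion channels, and both were listed with lower intensity in the maxillary arch mesenchyme of mouse embryos lacking Lhx6 and Lhx8. Their probe sets were taken from the authors' deposited table of selected probe sets by gene symbol, which gave 3 of the 1061 listed probe sets, 2 for Chrna5 and 1 for Gria1, and 2 of the 842 genes listed under a single symbol. The same probe sets were then read in the value table, which holds all 45101 probe sets of the array. No probe set with several symbols named either gene, and any further probe set for these genes elsewhere on the array was not analysed here.

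The maxillary arch gives rise to the upper jaw and the secondary palate, and the tissue was cut with a laser from frozen head sections at embryonic day 10.5, over the region where Lhx6 and Lhx8 are normally active. There were 3 arrays from embryos of genotype Lhx6-/-; Lhx8-/-, numbered 1, 2 and 4, and 3 arrays from wild-type embryos, numbered 1, 4 and 5. All 6 embryos were female, matched for somite count, and of a mixed C57BL/6J, 129 and CD-1 background. Sections from the whole length of the arches went into a sample, and the small amount of RNA was amplified before hybridisation.

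The nicotinic acetylcholine receptor is a pentamer of subunits around a cation channel that opens when acetylcholine binds. The alpha 5 subunit encoded by Chrna5 is an accessory subunit: it does not form a working receptor by itself and joins others, such as alpha 3 with beta 4 or alpha 4 with beta 2, altering the properties of the channel. AMPA receptors are tetramers gated by glutamate, carry most fast excitatory transmission in the brain, and are built from the subunits GluA1 to GluA4, of which Gria1 encodes GluA1. The subunits of both families are best known from neurons and muscle, and several are also known from non-neuronal tissue.

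Chrna5 lies in a conserved cluster with the genes of its partner subunits. In the RefSeq annotation of GRCm38.p6 it occupies chromosome 9 from 54980827 to 55011420 on the plus strand. Chrna3, for the alpha 3 subunit, runs from 55010117 to 55026562 on the minus strand, so the ends of the 2 genes overlap by 1304 bases. Chrnb4, for the beta 4 subunit, follows at 16733 bases from the end of Chrna5, and Psma4, for a proteasome subunit, lies 22792 bases before its start. None of the 4 nearest annotated genes, Psma4, Chrna3, Chrnb4 and AY074887, was listed in the deposited table. Gria1 spans 318674 bases of chromosome 11, from 57011571 to 57330244. Its nearest annotated neighbours on either side, at 284928 and 118836 bases, are a long non-coding RNA gene and a pseudogene, and none of the nearest 4 was listed. Of all probe sets on the array, 0.922% were listed as lower and 1.43% as higher, so most genes would not be listed. Whether the array has probe sets for the neighbours of either gene was not determined.

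The table of RefSeq promoter sequences, which covers 250 bases before to 50 bases after each annotated start, held 2 Chrna5 starts. They are shown because LIM-homeodomain proteins such as Lhx6 and Lhx8 are known to prefer DNA with a TAAT core. Capitals mark the letters CAATTA, a variant of TAATTA, searched on both strands. This variant was chosen after the sequences had been seen.
Chrna5 upstream start, chr9:54980630-54980929, plus strand: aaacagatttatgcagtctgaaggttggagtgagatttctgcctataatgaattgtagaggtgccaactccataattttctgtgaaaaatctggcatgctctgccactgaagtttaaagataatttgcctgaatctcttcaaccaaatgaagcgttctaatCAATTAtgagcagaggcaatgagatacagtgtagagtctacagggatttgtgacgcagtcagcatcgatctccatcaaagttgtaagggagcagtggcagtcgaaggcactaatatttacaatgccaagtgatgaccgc
Chrna5 downstream start, chr9:54981238-54981537, plus strand: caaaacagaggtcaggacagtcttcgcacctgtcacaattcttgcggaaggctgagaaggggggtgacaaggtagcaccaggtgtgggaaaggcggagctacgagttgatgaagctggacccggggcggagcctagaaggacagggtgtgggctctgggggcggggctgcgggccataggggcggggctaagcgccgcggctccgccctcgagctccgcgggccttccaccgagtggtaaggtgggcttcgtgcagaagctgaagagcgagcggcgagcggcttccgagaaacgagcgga

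The 2 starts differ in base composition. The upstream window had a GC content of 41.3% and the downstream window one of 65.0%, against a median of 52.7% over all 32851 promoter windows of this length. TAATTA, on either strand, occurred in neither window and in 5.29% of all windows. CAATTA occurred 1 time in the upstream window, 89 bases before the start, was not found in the downstream window, and occurred in 8.0% of all windows. The shorter TAAT, part of TAATTA on both strands, occurred 6 times in the upstream window and was not found in the downstream window. At least 1 match occurred in 58.0% of all windows, which gives no background for a count of 6. Of the 6 matches, 1 lies within the marked CAATTA. The GC content of the upstream window was below the lower quartile of all windows, 45.7%. These matches describe letters and not bound sites.

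The brighter Chrna5 probe set, 1427401_at, had a much lower signal on every double-mutant array. In the deposited table its intensities were 18.4, 24.1 and 21.6 on double mutants 1, 2 and 4, against 95.4 and 163 on wild types 4 and 5 and 130.4 on a wild-type array whose number matches no sample title. That array is called unnumbered below, although its column name does carry a number. The 3 double-mutant values lay close together, and the wild-type values were all higher and more widely spread. The means were 21.4 ± 2.88 in the double mutants and 129.7 ± 34.0 in wild type (SD, n = 3), a log2 difference of -2.58 ± 0.25 (SE). The authors' deposited table lists it as 5.96-fold lower, with p = 0.000519 from an unpaired test that was not corrected for the number of probe sets. Among the 416 probe sets listed as lower in the authors' deposited table, its fold came at number 6 and its p at number 4.

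The second Chrna5 probe set, 1442035_at, was dimmer and differed less. Its deposited intensities were 21.2, 27.6 and 12.5 on double mutants 1, 2 and 4, against 50.9 and 62.9 on wild types 4 and 5 and 56.6 on the unnumbered wild-type array. Here double mutant 4 was the lowest array and double mutant 2 the highest of its group, and the groups did not overlap. The means were 20.4 ± 7.61 in the double mutants and 56.8 ± 6.00 in wild type (SD, n = 3), a log2 difference of -1.54 ± 0.35 (SE). It is 2.92-fold lower with an uncorrected p of 0.0114 in the authors' deposited table, and its means, under 100 in both groups, keep it out of the study's own list of regulated genes. That list had 3 criteria, an uncorrected p under 0.05, a fold above 1.5 and mean intensity above 100 in at least 1 group, and the brighter set met all of them.

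Both Chrna5 probe sets read the plus strand of chromosome 9 in the authors' alignments, for which no genome build was given in the sources used here. The brighter set is placed from 54828686 to 54854725, a span of 26040 bases, and the second from 54854906 to 54855590, starting 181 bases beyond the end of the first. The alignment entry carries a percentage, with no explanation in the file, of 93.0% for the brighter set and 55.3% for the second, beside 97.5% for the Gria1 set. The entry of the second set is the lowest of the 3, and what else that set may read was not tested. Whether the second set lies in the stretch shared with Chrna3 was not determined, since the build behind these positions is not named. Within arrays, the log2 ratio of the brighter to the second set was -0.20 to 0.79 in the double mutants and 0.91 to 1.38 in wild type. Between the groups this ratio differed by -1.03 ± 0.36 (log2, SE), so the size of the Chrna5 difference depended on which set was read. The sets share a gene and the same arrays and are not independent measurements of it.

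Gria1 had the larger fold of the 2 genes in the deposited table and the wider spread. Its intensities with probe set 1435239_at were 58.0, 20.6 and 11.3 on double mutants 1, 2 and 4, against 109 and 189 on wild types 4 and 5 and 193 on the unnumbered wild-type array. Double mutant 1 was the highest of its group and double mutant 4 the lowest, and all 3 lay below the lowest wild type. The means were 29.9 ± 24.7 in the double mutants and 164 ± 47.3 in wild type (SD, n = 3), a log2 difference of -2.73 ± 0.74 (SE). The authors' deposited table gives Gria1 as 6.66-fold lower with an uncorrected p of 0.0208. Among the 416 probe sets listed as lower, its fold came at number 2 and its p at number 168. The authors place the probe set on the plus strand of chromosome 11 from 57141665 to 57143746, a span of 2082 bases on the unnamed build.

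**Figure D1:**
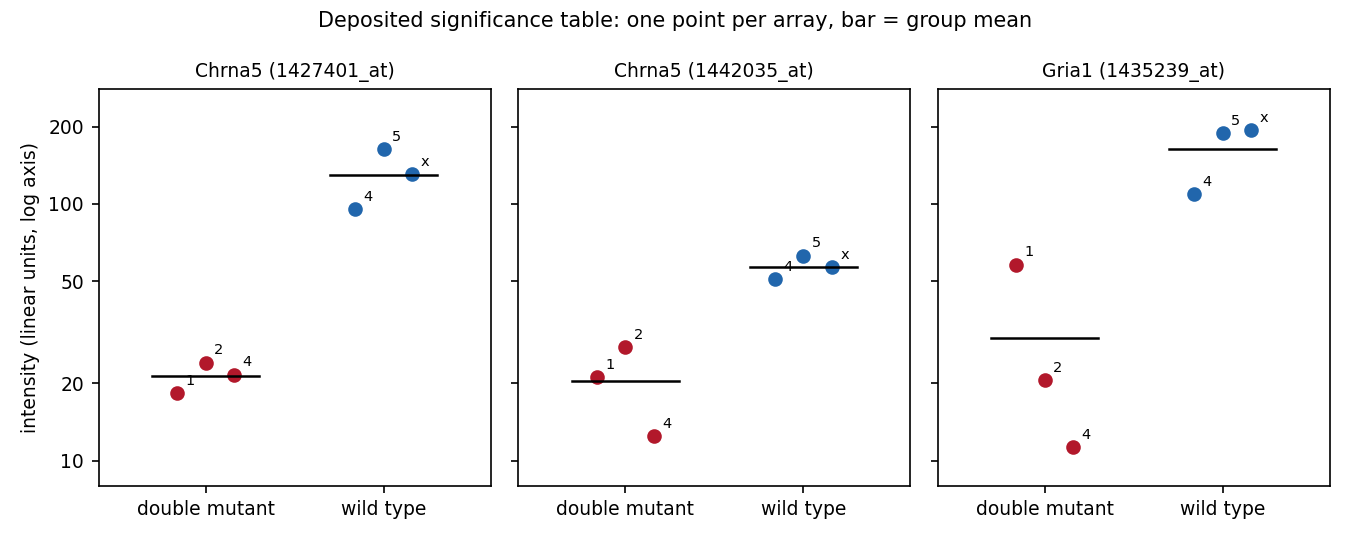
Intensity (linear units, log axis) of the 2 Chrna5 probe sets and the Gria1 probe set in the deposited significance table, 1 point per array with its number (x marks the unnumbered wild-type array) and a bar at the group mean. Double-mutant arrays lie below all wild-type arrays in each panel, tightly for 1427401_at (18.4 to 24.1) and widely for Gria1 (11.3 to 58.0).

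These values chose the genes, so they describe the 2 genes and carry no test of their own. Of all probe sets on the array, 0.922% were listed as lower and 1.43% as higher, and 0.328% were lower by all 3 criteria. Every one of the 1061 listed probe sets (100%) had groups that did not overlap in the deposited table, and 39.2% were lower without overlap, so the lack of overlap in the 3 probe sets follows from their being listed. In bulk tissue, fewer cells that express a gene and less RNA per cell cannot be told apart.

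The value table, which is on another scale, held the 6 arrays that the sample titles name and was not filtered by p or fold. There 1427401_at had intensities of 3.2, 2.5 and 1.9 on double mutants 1, 2 and 4, against 54.2, 30.2 and 53.6 on wild types 1, 4 and 5. The double-mutant signals lay between the 12.1 and 20.2 percentile of the probe sets on their own arrays, and the wild-type signals between the 55.7 and 62.8 percentile. For this probe set the mean in the deposited table was 8.44 times that in the value table in the double mutants and 2.82 times in wild type, while for Gria1 the ratios were 2.54 and 2.73. For 1442035_at the ratios were 3.67 in the double mutants and 3.16 in wild type. The tables therefore differ by more than a common scale for the double-mutant signals of 1427401_at.

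The second Chrna5 set had value-table intensities of 7.8, 6.8 and 2.1 on double mutants 1, 2 and 4, against 21.8, 13.2 and 19.0 on wild types 1, 4 and 5. Gria1 had 24.8, 6.8 and 3.8 on double mutants 1, 2 and 4, against 67.7, 43.8 and 68.1 on wild types 1, 4 and 5. Taken as plain ratios of the value-table means, with nothing added, the double mutants were 18.2-fold lower for 1427401_at, 3.23-fold lower for 1442035_at and 5.07-fold lower for Gria1. By that measure 1427401_at had a larger fold than Gria1, and 1442035_at a smaller one. The 18.2 rests on a double-mutant mean of 2.53, near the low end of intensities that include zeros. The deposited folds, of which Gria1 had the larger, compare means of log2 intensities. The 2 rankings therefore rest on unlike measures, and also on different tables. On log2 values of the value table, with 16 added to each intensity, 1427401_at again differed more than Gria1. The differences were -1.72 ± 0.19 and -1.50 ± 0.31 (SE). Without double mutant 1 the order in the value table was reversed, at -1.74 ± 0.21 for 1427401_at and -1.82 ± 0.19 for Gria1. Wild type 4 was the lowest wild-type array for all 3 probe sets in both tables. Double mutant 1 was the highest of its group for all 3 in the value table, but for 1427401_at it was the lowest in the deposited table. The Gria1 signal of double mutant 1 reached the 52.6 percentile of its array, against 34.6 and 19.2 for double mutants 2 and 4.

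**Figure D2:**
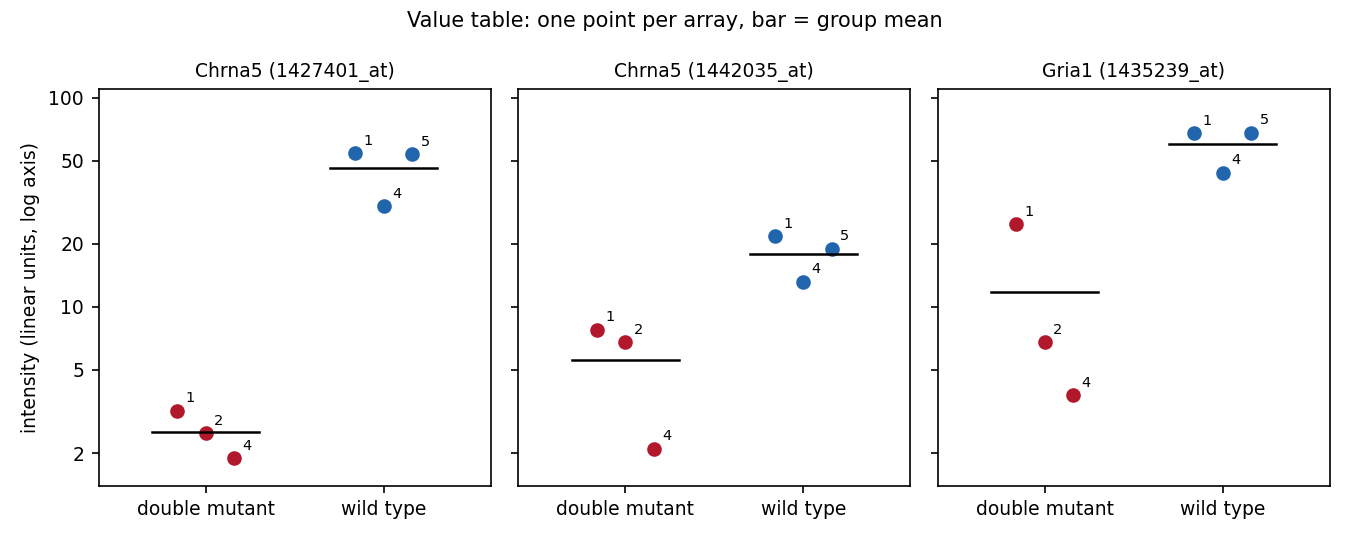
Intensity (linear units, log axis) of the same 3 probe sets in the value table, 1 point per array with its number and a bar at the group mean. The double mutants lie below the wild types in each panel, with double mutant 1 at 24.8 nearest to wild type for Gria1.

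On the log2 scale of the value table, with 16 added to each intensity because zeros have no log, the differences were -1.72 ± 0.19 (SE) for 1427401_at, -0.66 ± 0.17 for 1442035_at and -1.50 ± 0.31 for Gria1, double mutant minus wild type. The constant understates the change of dim probe sets, and all 3 are dim, with means under 100 in both groups. A fit with limma over 45037 probe sets called 0 at an adjusted p under 0.05 (0% of those tested), with 1646 at an unadjusted p under 0.05 (3.65%), of which 664 were lower (1.47%). The ordinary unpaired test called 0 after adjustment and 1776 before it. Without double mutant 1, limma gave 0 after adjustment and 2825 before it, of which 1084 were lower (2.41%). The limma adjusted p was 0.748 for 1427401_at and 0.857 for both 1442035_at and Gria1, so neither gene passed. These are the arrays that chose the genes, and the fit is no independent test of them. Groups did not overlap and were lower in the double mutants for 4.06% of all non-control probe sets in the value table, the 3 Chrna5 and Gria1 sets among them, and did not overlap and were higher for 6.72%.

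One array stood apart. The control probe sets for the 3' and 5' ends of Actb had a signal ratio of 24.8 on double mutant 1, and those of Gapdh 17.8, against at most 1.85 and 1.6 on the other 5 arrays, although its median intensity of 20.4 was within 19.0 to 20.5, the range of all arrays. Lhx8, one of the deleted genes, also had its highest double-mutant signal there, with deposited intensities of 5177, 2711 and 3177 on double mutants 1, 2 and 4, against 8976 and 9493 on wild types 4 and 5 and 8628 on the unnumbered one. In the value table Lhx8 on double mutant 1, at 2036, was inside the wild-type range of 1992 to 2240.5. Which part of Lhx8 the deletion removes was not stated in the labels, so this probe set does not check the genotype, and Lhx6 has no named probe set.

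Without double mutant 1 the Gria1 difference was -3.38 ± 0.47 in the deposited table and -1.82 ± 0.19 in the value table (log2, SE). The same omission gave -1.74 ± 0.21 for 1427401_at and -0.73 ± 0.17 for 1442035_at in the value table. Gria1 thus differed more without this array, and the Chrna5 differences moved by less than their errors. Leaving out any of the 6 arrays in turn, 1427401_at met the study's 3 criteria each time, with p and fold recomputed from the deposited intensities. Gria1 met them in 3 of 6 cases: without double mutant 1, without double mutant 4 and without wild type 4. It missed them without double mutant 2, without wild type 5 and without the unnumbered wild type.

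**Figure D3:**
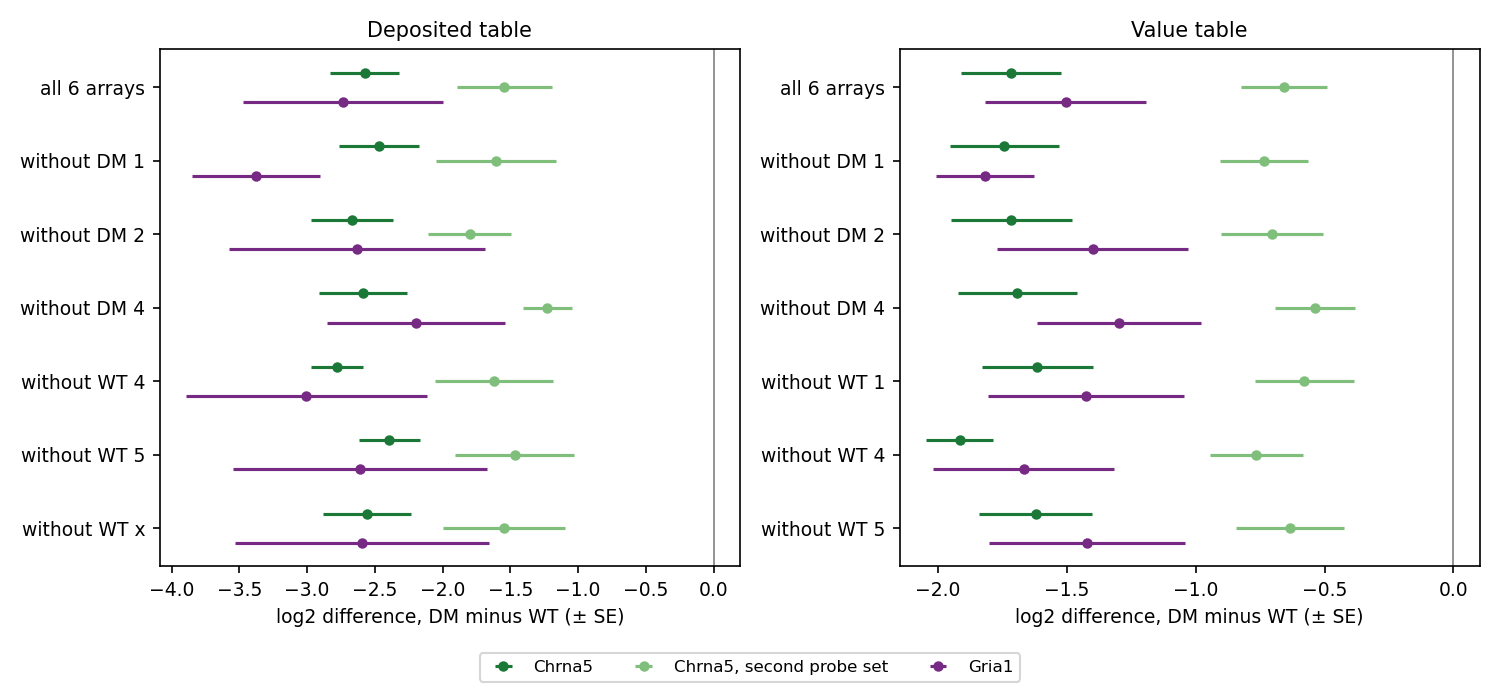
Log2 difference, double mutant (DM) minus wild type (WT), with its SE, for the 3 probe sets over all 6 arrays and with each array left out, in the deposited table (left) and the value table (right, 16 added before log2); WT x is the unnumbered array. Every value is below 0, which the lack of overlap between the groups fixes in advance. The Gria1 errors are the widest, except where double mutant 1 is left out of the value table.

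Each receptor family had 1 listed gene besides Chrna5 or Gria1. Of all probe sets on the array 0.922% were listed as lower and 1.43% as higher, and most genes of any list would not be listed at those shares. Of the 16 nicotinic subunit genes, Chrnb1 was the 1 other listed gene, higher in the double mutants. It encodes the beta 1 subunit of the receptor in muscle. Its deposited intensities were 14.5, 11.4 and 15.5 on double mutants 1, 2 and 4, against 11 and 9.47 on wild types 4 and 5 and 9.47 on the unnumbered one, so its signal was dim throughout. Its fold in the authors' deposited table was 1.38, with an uncorrected p of 0.0375. In the value table it differed by 0.24 ± 0.16 and, without double mutant 1, by 0.09 ± 0.10 (log2, SE). Chrna3 and Chrnb4, the genes next to Chrna5 for subunits that assemble with alpha 5, were not listed, and their signals were not analysed here.

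Of the 18 ionotropic glutamate receptor genes, Gria2 was listed beside Gria1, also as lower. It encodes GluA2, the AMPA receptor subunit whose presence makes the channel nearly impermeable to calcium. Gria2 had deposited intensities of 22.3, 33.9 and 28.6 on double mutants 1, 2 and 4, against 46.7 and 59.6 on wild types 4 and 5 and 72.3 on the unnumbered one. The authors' deposited table gives it as 2.11-fold lower with an uncorrected p of 0.0132. In the value table its groups overlapped, with 7.2, 9.6 and 4.2 on double mutants 1, 2 and 4 against 17.4, 8.1 and 24.4 on wild types 1, 4 and 5, and the log2 difference was -0.48 ± 0.22 (SE).

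The list of AMPA receptor auxiliary subunits, scaffolds and trafficking proteins had 4 of 32 genes listed, 3 lower and 1 higher, and all 4 encode scaffolds. Dlg2, for a postsynaptic scaffold of the PSD-95 family, had deposited intensities of 19.7, 34.7 and 22.9 on double mutants 1, 2 and 4, against 80.8 and 64.9 on wild types 4 and 5 and 60.0 on the unnumbered one. Its log2 difference was -1.44 ± 0.28 there and -0.81 ± 0.19 in the value table (SE). Grip1, for a PDZ-domain protein that binds AMPA receptor subunits, averaged 140.8 ± 9.51 in the double mutants and 186 ± 8.70 in wild type (SD, n = 3), a fold of 1.32 in the authors' deposited table.

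Homer2, for a scaffold that binds metabotropic glutamate receptors, averaged 66.5 ± 8.26 in the double mutants and 102.9 ± 22.2 in wild type in the deposited table (SD, n = 3). In the value table it did not differ by more than its error, at -0.0038 ± 0.24 (log2, SE), and without double mutant 1 its sign turned, at 0.24 ± 0.15. Shank3, for a scaffold that links receptor complexes at the synapse, was on the higher side, with 459 ± 131 in the double mutants and 278 ± 20.3 in wild type (SD, n = 3). It had 602 on double mutant 1, against 431 and 345 on double mutants 2 and 4, so that array was its highest. The median log2 difference over the 4 listed probe sets was -0.51, beside 0.38 over all 1061 listed probe sets.

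Glutamate handling gave 2 listed genes of 14, in opposite directions. Slc1a3, for the glutamate transporter known as GLAST, had a bright probe set with deposited intensities of 277, 562 and 328 on double mutants 1, 2 and 4, against 715 and 688 on wild types 4 and 5 and 834 on the unnumbered one. The authors' deposited table gives this set as 2.00-fold lower and a dimmer second set as 1.64-fold lower. In the value table the bright set differed by -1.14 ± 0.37 and, without double mutant 1, by -0.75 ± 0.20 (log2, SE). Slc17a6, for the vesicular glutamate transporter VGLUT2, was listed as 1.29-fold higher in the authors' deposited table, with every signal under 10, from 8.42 to 9.48 in the double mutants and from 6.61 to 7.46 in wild type.

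Among the remaining lists, Gabra2, for a GABA-A receptor subunit, was the 1 listed gene of 34 other ligand-gated channel subunits. It averaged 21.9 ± 7.70 in the double mutants and 8.70 ± 1.53 in wild type (SD, n = 3). Adra2a, for the alpha 2A adrenergic receptor, was the 1 listed of 40 receptors coupled to G proteins, with 43.9, 80.6 and 87.7 on double mutants 1, 2 and 4, against 22.5 and 13.2 on wild types 4 and 5 and 24.9 on the unnumbered one. Its fold of 3.47 in the authors' deposited table was on the higher side, opposite to Chrna5 and Gria1. Lrp4, for the agrin receptor of the neuromuscular junction, was the 1 listed of 18 genes of acetylcholine handling and receptor assembly, at 1407 ± 111 in the double mutants and 1122 ± 43.1 in wild type (SD, n = 3). None of the enzymes or transporters of acetylcholine on that list was listed.

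Counts in the 7 lists are of genes, whereas the listed shares of the array, 0.922% lower and 1.43% higher, are of probe sets. A share over genes could not be given, because unlisted probe sets have no named gene here. In all, the 7 lists held 172 genes, of which 13 were listed, 7 lower and 6 higher. Apart from Chrna5 and Gria1 that is 5 lower and 6 higher, with 12 probe sets. Of these, 9 had groups that did not overlap in the value table, where the share over all probe sets was 4.06% lower and 6.72% higher. All 12 had been selected at an uncorrected p under 0.05, on arrays of which at least 5 are shared by the tables, so a lack of overlap follows in part from that selection. The limma test called 0 of the 12 after adjustment. By the value table, 6 of these 12 were lower, and without double mutant 1 there were 5, Homer2 being the exception. Quantile normalization or a common array median turned the sign of 0 of the 23 probe sets in these lists and in the marker lists. Chrna5 and Gria1 had the largest deposited folds among the listed genes of these lists, which were selected by the authors on these arrays.

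**Figure D4:**
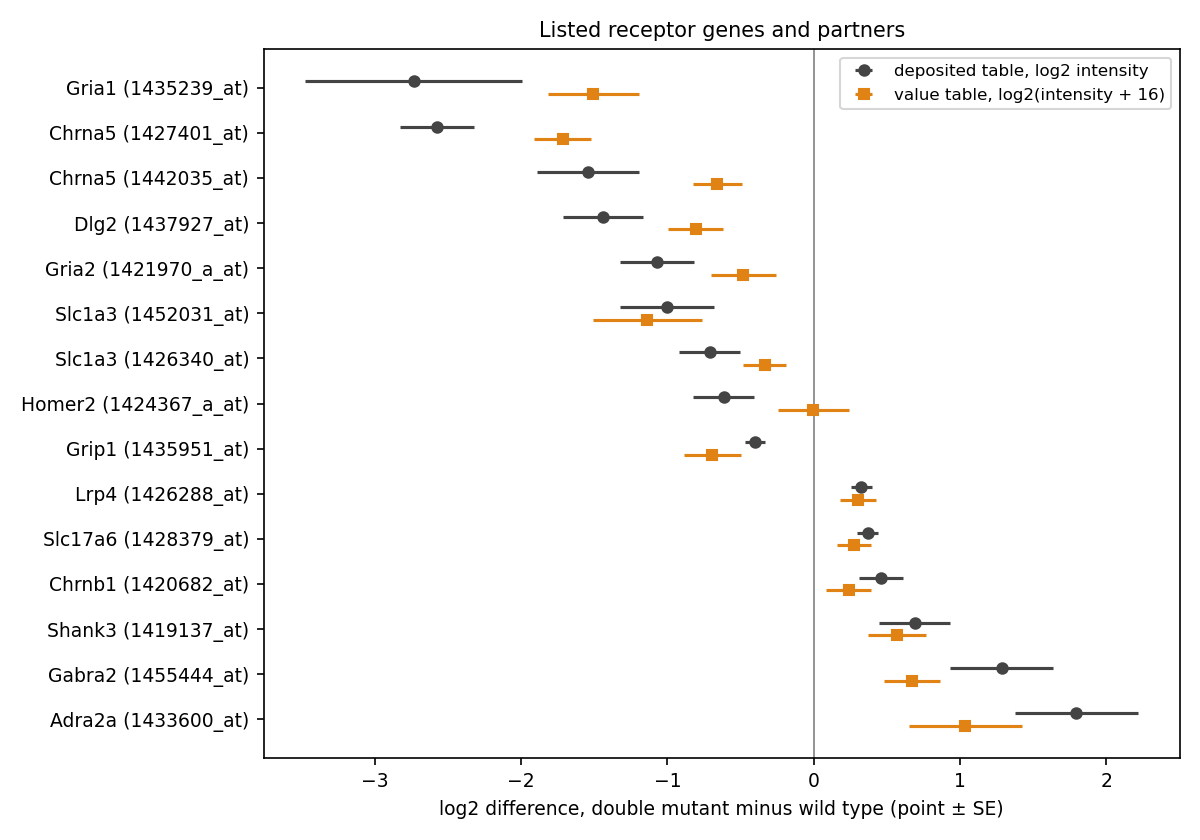
Log2 difference, double mutant minus wild type, with its SE (n = 3 arrays per group), for the 15 listed probe sets of the 7 receptor-related lists, in the deposited table (grey circles) and in the value table with 16 added (orange squares). Gria1 and 1427401_at lie farthest to the left at -2.73 and -2.58, and Homer2 is at 0 in the value table.

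The file annotates 21 listed genes to a molecular function with the words ion channel activity, 15 higher and 6 lower, beside 645 higher and 416 lower (39.2%) among all listed probe sets. Whether these splits differ was not tested. The lower ones were Chrna5, Gria1, Gria2, Cacnb4, for a calcium channel subunit, and Kcnab1 and Kcnmb2, for auxiliary subunits of potassium channels. Chrna5 and Gria1 were the 2 of these 6 with a mean intensity over 100 in either group, against 7 of the 15 higher ones. Folds of the other lower genes in the authors' deposited table ran from 1.70 to 2.63.

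No listed marker of neurons, muscle or glia was lower in the double mutants. Over the whole array, 0.922% of probe sets were listed as lower and 1.43% as higher, and 645 of the 1061 listed were higher. The marker counts are of genes and these shares of probe sets, and whether they differ was not tested. Of 22 neuron markers Nefm, for the medium neurofilament protein, was the 1 listed, at 26.7 to 32.6 in the double mutants and 14.1 to 18.0 in wild type. Of 13 muscle markers Msc, for the transcription factor musculin, was the 1 listed, at 54.4 to 68.1 in the double mutants and 41.5 to 50.1 in wild type. Of 9 markers of glia and Schwann cell precursors 4 were listed, all higher, with summed signals of 605 to 687 in the double mutants and 285 to 314 in wild type. Most of that sum is 1 of 2 Ngfr probe sets, at 328 to 477 in the double mutants and 176 to 206 in wild type. The sum holds listed probe sets only, each without overlap between the groups, so its separation follows from the listing. The same holds for the ranges of each listed marker here. Sox10 had 38.7 to 95.7 in the double mutants and 19.5 to 21.3 in wild type. Erbb3 had 64.9 to 129.4 in the double mutants and 48.5 to 50.9 in wild type, and Foxd3 had 13.2 to 20.3 in the double mutants and 10.1 to 10.6 in wild type. Epithelium, endothelium and blood had 0 listed markers of 13, 9 and 9, and arch mesenchyme had 1 of 16, Msx1, at 2578 to 3484 in the double mutants and 4236 to 5087 in wild type. Msx1 is bright on all 6 arrays and was the 1 arch mesenchyme marker with a named probe set here. It was listed because it differed, so it does not check whether the tissue matched between the groups. Markers that were not listed have no named probe set here, and the part of these cells in the receptor signals was not tested.

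The listed probe sets whose profile over the 6 arrays was nearest to each gene were compared after centring log2 intensities on their own mean. For the brighter Chrna5 set the nearest of 926 were Cpne8, Prr16, Pcdh17, Ucma and Shox2, at root mean square differences of 0.30, 0.31, 0.34, 0.34 and 0.45 (log2), against a median of 1.51 over all compared. The second Chrna5 set was farther away, at 0.63. Cpne8 had 39.8, 58.1 and 67.1 on double mutants 1, 2 and 4, against 326 and 434 on wild types 4 and 5 and 241 on the unnumbered one, so double mutant 1 was its lowest array and wild type 5 its highest, as for Chrna5. Cpne8 encodes a calcium-dependent phospholipid-binding protein, Pcdh17 a protocadherin, Ucma a cartilage matrix protein and Shox2 a homeodomain protein of the palate.

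Gria1 had no profile as near. Its nearest of 927 were Bhlhe22, for a basic helix-loop-helix protein, Ucma, Prr16, Chrna5 and Barx1, for a homeodomain protein, at 0.67, 0.74, 0.75, 0.79 and 0.84, against a median of 1.72. For Bhlhe22, Ucma and Barx1, as for Gria1, double mutant 1 was the highest of its group. For Ucma the margin was small, at 70.9 on double mutant 1 and 68.2 on double mutant 4. For Prr16 and Chrna5 double mutant 1 was not the highest. Bhlhe22 had 24.9, 14.3 and 12 on double mutants 1, 2 and 4, against 91.9 and 66.9 on wild types 4 and 5 and 58.2 on the unnumbered one. Chrna5, with 18.4 there, had its lowest deposited signal on that array, but in the value table that array was its highest double mutant, as for Gria1. Chrna5 was itself the fourth nearest to Gria1, while Gria1 was not among the 5 nearest to Chrna5. All of these genes are lower in the double mutants, as any near profile of Chrna5 or Gria1 must be.

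**Figure D5:**
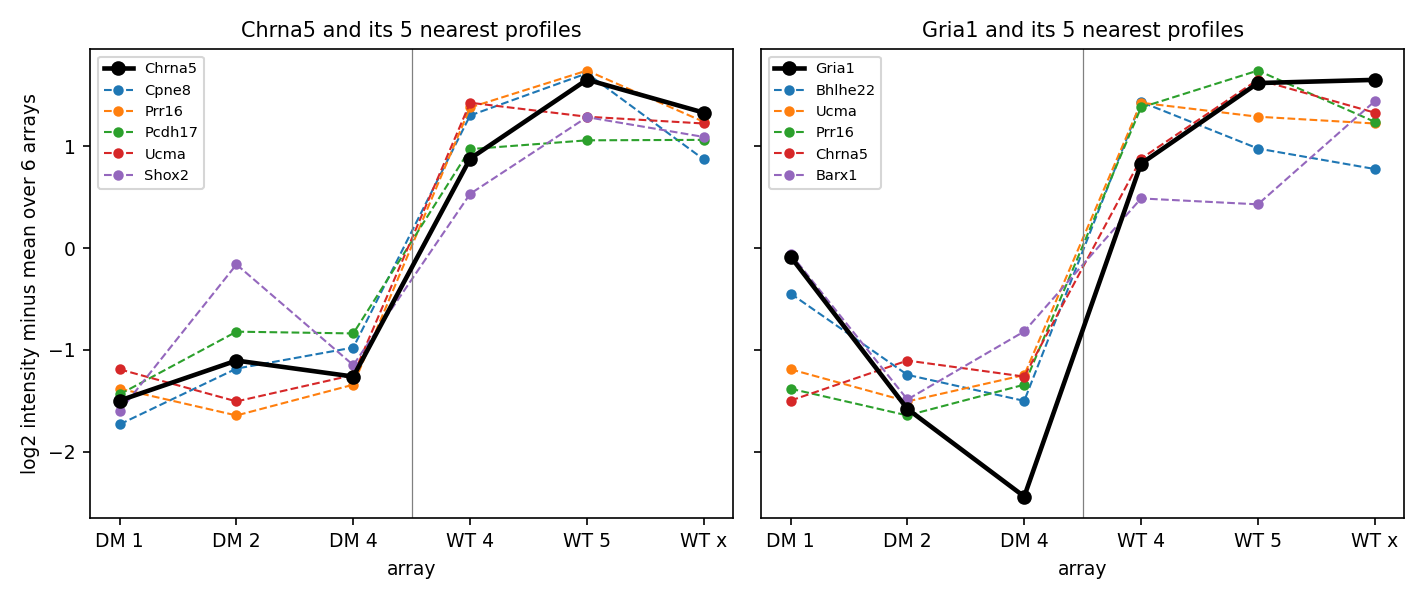
Log2 intensity minus its mean over the 6 arrays in the deposited table, for Chrna5 (left) and Gria1 (right) in black and the 5 listed genes nearest to each in colour; DM marks double-mutant and WT wild-type arrays, x the unnumbered one, and lines join the values of 1 gene. The neighbours of Chrna5 lie within 0.30 to 0.45 of it, while those of Gria1 lie at 0.67 to 0.84.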

How the data were processed

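Total RNA from laser-dissected tissue of 6 embryos was amplified and hybridised to an Affymetrix mouse array, per the labels. The deposited value table holds linear intensities with zeros; RMA is the tool named in the submitters' processing notes, and no account of how these intensities were summarised was given in the sources used here. The deposited significance table holds linear intensities that it calls raw, 6 normalized columns that were not used, unadjusted p-values of an unpaired test and absolute folds, with cut-offs of p 0.05 and fold 1.25, per the file headers. Recomputing p and fold from log2 of the raw intensities gave the deposited values to within 5.14e-07 and 1.63e-06.

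From the value table, log2(intensity + 16) of 45037 probe sets, without 64 control sets, was fitted with limma 3.58.1 in R 4.3.3 (lmFit, eBayes, Benjamini-Hochberg). No intensity filter was used, so that every Chrna5 and Gria1 set was included. The fit was also run on simulated data, with large changes placed in probe sets of low spread and no array set apart. That run does not show what the fit could detect on these arrays. Other steps used Python 3.11.15 with pandas 2.3.3, scipy 1.17.1 and matplotlib 3.10.9. The genes named are Chrna5 and Gria1, listed genes of the 7 lists, listed neuron and muscle markers, the 2 nearest genes on each side and the 5 nearest profiles; those lower with an ion channel annotation, and Msx1, were added after their values were seen. The members, lists and rules were chosen with earlier results of these data known. Each array is a separate embryo, and the number of arrays limits the precision. Same-numbered arrays (1 and 4) had deviations from their group means that correlated at 0.05 and -0.05, so the numbers were not treated as pairs. The alternatives were other constants, intensity filters, normalizations, array weights, the replicate number as a block, the ordinary test and each array left out.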

Additional observations from a re-analysis of the deposited data

How the results depend on the processing

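All 57 alternative values of the 3 probe sets, over both tables, stayed below 0. The sets were chosen as lower, and their groups do not overlap in either table. Leaving out an array, changing the constant or weighting the arrays therefore could not turn the sign. With a constant of 1 in place of 16 before log2 the value-table differences were -3.70 for 1427401_at, -1.64 for 1442035_at and -2.59 for Gria1, and with 64 they were -0.72, -0.24 and -0.71, since a larger constant shrinks the difference of dim probe sets. Adding 16 in the deposited table gave -1.94 for 1427401_at and -1.02 for 1442035_at. With each array left out, the value-table differences ranged from -1.92 to -1.61 for 1427401_at, from -0.76 to -0.54 for 1442035_at and from -1.82 to -1.30 for Gria1; the deposited-table ones ranged from -2.78 to -2.39, from -1.80 to -1.23 and from -3.38 to -2.20. The 261 listed probe sets that met the 3 criteria became 118 to 201 with an array left out. That recount was made among the 1061 listed probe sets alone. No unlisted one could enter, so part of the fall follows from the selection. Array quality weights gave 9 probe sets past adjustment in place of 0, with adjusted p of 0.0912 for 1427401_at, 0.281 for 1442035_at and 0.0776 for Gria1 by limma, in a fit that gave double mutant 1 a weight of 0.124 and double mutant 2 one of 3.14. The other alternatives gave 0 past adjustment. With the replicate number as a block, which rests on numbers 1 and 4, the differences were -1.62, -0.68 and -1.32, and 0 probe sets passed; in the deposited table no block could be fitted because its columns share the number 4 alone. An intensity filter at a mean of 100, in either group or over all 6 arrays, left out all 3 probe sets, so it gave no value for them. The omission of double mutant 1 for the gene lists was chosen after seeing the data.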
